A study of Mus musculus with 33 samples.

Results

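The defensin genes of the mouse genome were examined in ChIP-seq lists from wild type (WT) and Uhrf1 knockout (KO) cells. Members were all protein-coding genes of the mm9 GENCODE annotation whose name starts with Defa (alpha-defensins) or Defb (beta-defensins), which gave 53 of 22367 coding genes, 12 of them Defa and 41 Defb. The cells were E14, an established mouse embryonic stem cell line (mESC), a Uhrf1 KO mESC line, and embryoid bodies (EBs), differentiating aggregates grown from either line and taken at week 1, 2 or 3. No other treatment separated the groups, and each genotype was a single line with 1 library per group, so clonal differences between the lines and loss of Uhrf1 cannot be told apart. The mESC were kept on gelatin or on fibroblast-coated plates. H3K4me3 and H3K27me3 were measured at all 4 stages in both genotypes, H3K9me3, Oct4, Sox2 and Nanog in WT and KO mESC, and Uhrf1 in WT mESC, which gave 25 lists. There were no replicates, so every difference below lacks a measured spread and no test was made.

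Defensins are small cationic peptides that disrupt the membranes of bacteria. In the mouse, alpha-defensins (cryptdins) are made by the Paneth cells of the small intestine, whereas beta-defensins are made by epithelia of the skin, airway and urogenital tract, and many of them by the epididymis, where they coat sperm. H3K4me3 marks active or poised promoters, H3K27me3 is laid down by Polycomb and H3K9me3 marks heterochromatin, and the latter pair accompany silent genes. Oct4, Sox2 and Nanog are transcription factors of pluripotent cells, and Uhrf1 is a chromatin protein that binds hemimethylated DNA and H3K9me3 and guides the DNA methyltransferase Dnmt1.

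The genes lay in 5 runs. The run on chromosome 1 held Defb18 and Defb41, the run on chromosome 2 (chr2:152284791-152448789, 164 kb) held 11 Defb genes from Defb23 to Defb25, and the run on chromosome 14 held 5 from Defb48 to Defb42. Chromosome 8 held 35 genes in a proximal run of 14 Defb genes from Defb40 to Defb7 (chr8:18974940-19497775) and a distal run from Defa21 to Defb13 (chr8:22165224-23059322) with all 12 Defa genes and 9 Defb genes. Between these runs the assembly has a gap of 2.00 Mb without sequence (chr8:20038714-22038713). Without this gap the runs lie 667 kb apart. Members less than 2 Mb apart were joined, so the split into a proximal and a distal run rests on the gap. All coordinates are those of mm9 (NCBIM37).

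The alpha-defensins are near copies of each other. Of 12 Defa genes, 11 carried a recognisable stretch of 60 bases that ends 15 to 60 bases upstream of the annotated start. It is shown for 5 genes, in all of which it holds the TATA-like letters tataaa, since the marks described below divide them: Defa23, Defa-rs7, Defa3 and Defa5 were in none of the 18 histone lists, whereas Defa24 was in 7. Capitals mark bases that differ from the Defa23 stretch, each sequence is read on the strand of its gene, and all were taken from NCBIM37.
Defa23 (chr8:22194640-22194699, plus strand): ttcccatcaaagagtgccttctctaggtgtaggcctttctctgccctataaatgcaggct
Defa-rs7 (chr8:22331173-22331232, plus strand): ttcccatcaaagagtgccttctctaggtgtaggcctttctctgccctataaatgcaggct
Defa3 (chr8:22427002-22427061, plus strand): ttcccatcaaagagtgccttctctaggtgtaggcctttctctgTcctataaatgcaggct
Defa5 (chr8:22436998-22437057, plus strand): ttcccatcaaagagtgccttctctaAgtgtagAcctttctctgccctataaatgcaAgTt
Defa24 (chr8:22844889-22844948, plus strand): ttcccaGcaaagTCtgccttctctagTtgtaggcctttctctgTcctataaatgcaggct
The stretches of Defa23 and Defa-rs7 were identical, Defa3 differed from them at 1 base and Defa5 at 4. Defa24 differed at 5 bases, and so did Defa22, Defa21 and Defa20, not shown, which were in 0, 1 and 2 histone lists. Defa17, also not shown, had the same stretch as Defa3 and was in 1 list. Over the 11 genes the number of differences from Defa23 was 0 to 12.

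How far a short read can be placed was measured by counting each 50-base word of the gene body plus 5 kb on either side in the whole genome, both strands included. Among the 41 Defb genes, 66.7 to 99.3% of words occurred once (median 94.8%). Among the 12 Defa genes the share was 7.27 to 61.9% (median 19.1%), so the ranges of the families did not overlap. Defa23 (7.27%) and Defa-rs7 (7.95%) had the lowest shares, and Defa24 (61.9%) and Defa20 (54.6%), both Paneth cell cryptdin genes, the highest among the Defa genes.

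A gene was counted as marked when a domain shared at least 1 bp with its body plus 5 kb. H3K4me3 was nearly absent from the defensin genes. In WT, 1 of 53 was marked in mESC and 2, 2 and 6 at weeks 1, 2 and 3, where 69.1, 68.5, 73.7 and 72.9% of all coding genes were marked. In Uhrf1 KO, 0 were marked in mESC and 0, 5 and 3 at weeks 1, 2 and 3, beside 62.4, 64.3, 72.4 and 73.1% of all coding genes. KO was below WT in mESC, week 1 and week 3 and above it at week 2, but these differences of 1 to 3 genes depended on the rule. With only the domains at or above the median score of their list, week 2 turned to 1 gene in WT and 0 in KO and week 3 to 0 in WT and 1 in KO. Week 1 had no difference under any of the 4 other rules, and mESC had none under 3 of them. Defensin genes are short, and among the 12233 coding genes no longer than the longest of them (18.6 kb) 58.1% were marked in WT mESC and 52.0% in KO mESC. Genes marked in WT and not in KO were 1, 2, 1 and 4 from mESC to week 3, beside 7.75, 5.84, 3.59 and 2.17% of all coding genes. Genes marked in KO and not in WT were 0, 0, 4 and 1, beside 1.10, 1.68, 2.34 and 2.38%.

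Defb25, a beta-defensin gene at the end of the chromosome 2 run, was the member marked in mESC and the one in the most lists, 12 of 18. Its WT mESC domain (chr2:152449701-152457500) lay 0.912 kb from its start and had a mean read count per bin of 12.1, rank 9300 of 15272 in its list. This domain held the start of Rem1, a Ras-related small GTPase gene, and not that of Defb25. The same was true of its domains at weeks 1, 2 and 3 in WT and weeks 2 and 3 in KO, where read counts were between 7.00 and 8.67. In KO mESC Defb25 had no H3K4me3 domain. Defb36, its neighbour and the gene in the second most lists (8 of 18), had H3K4me3 domains of 0.40 kb at WT week 1 and 0.800 kb at KO week 3, neither of which held a coding start.

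Of 20 pairs of a member and an H3K4me3 domain, which involved 11 members, 4 had the member's own start inside the domain. Among these were Defb10 at WT week 2 (0.40 kb, mean read count 19.0, rank 4527 of 39898), and Defa17 (17.1 kb, 6.56, rank 24362 of 32702) and Defb30 (1.05 kb, 6.97, rank 22527 of 32702) at KO week 2. In 7 pairs the domain held the start of another coding gene and in 9 it held none. No domain lay on the same member's own start in more than 1 list.

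**Figure D1:**
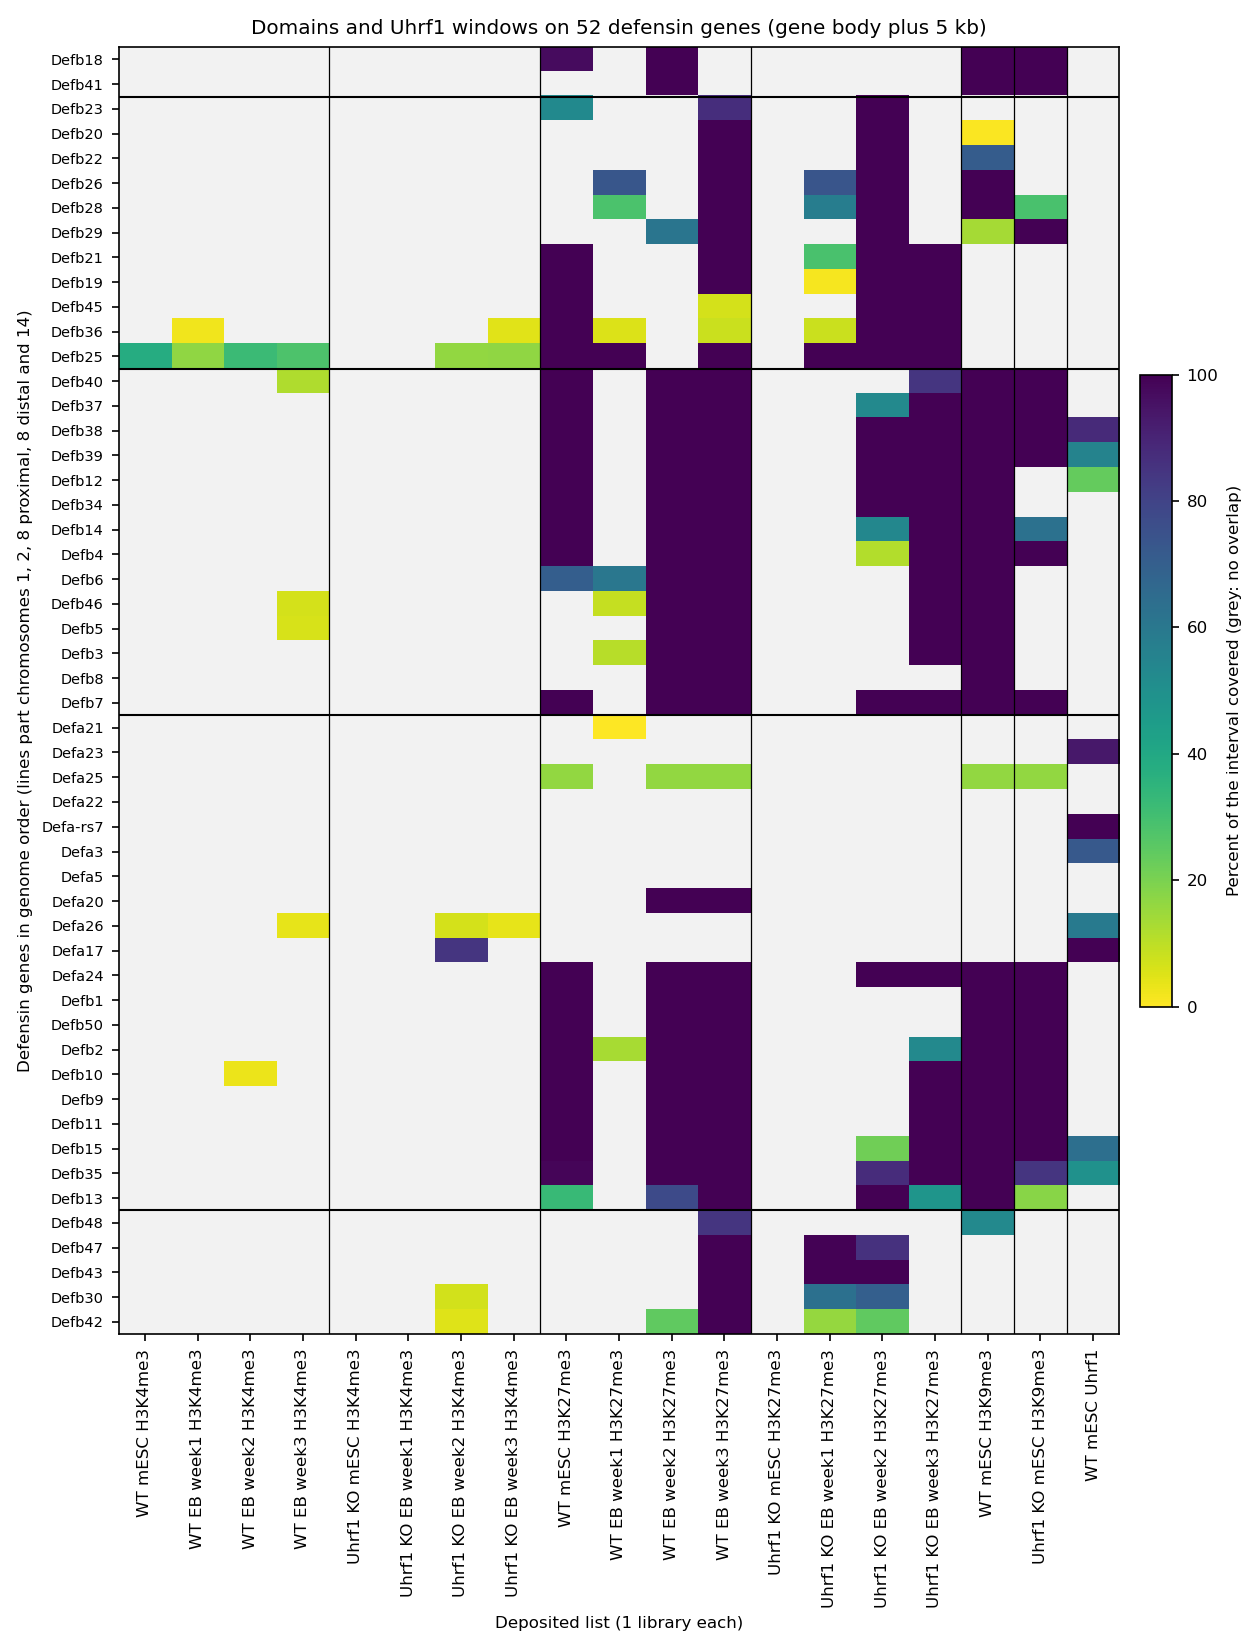
Percent of each defensin gene's body plus 5 kb covered by the domains of 18 histone lists and by the Uhrf1 windows. Rows are 52 of the 53 genes in genome order, columns are lists of 1 library each, and grey means no overlap. H3K4me3 columns are nearly empty, H3K27me3 in KO mESC is empty, and 5 Defa genes have no histone domain in any list.

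H3K27me3 lay over long stretches of the clusters in WT mESC and no H3K27me3 domain was listed on any defensin gene in KO mESC. In the proximal run on chromosome 8, 61.4% of the sequence was covered in WT mESC and 0 in KO mESC. In WT, 29 of 53 genes were marked in mESC and 9, 31 and 43 at weeks 1, 2 and 3, where 40.0, 25.5, 33.6 and 38.8% of all coding genes were marked. In KO the counts were 0 for mESC and 10, 27 and 26 for weeks 1, 2 and 3, beside 8.91, 27.1, 28.3 and 22.9% of all coding genes. As shares of the 53 genes these were 54.7, 17.0, 58.5 and 81.1% in WT and 0, 18.9, 50.9 and 49.1% in KO. The defensin genes were thus above all coding genes in mESC, week 2 and week 3 in WT and at weeks 2 and 3 in KO, and below them at week 1 in both genotypes. In mESC, 29 defensin genes were marked in WT alone and 0 in KO alone, beside 33.5 and 2.45% of all coding genes. The KO mESC list was also the shortest of the 8, with 722 domains over 84.1 Mb, against 8161 domains over 960 Mb in WT. Its domains had few reads. The median of their mean read counts per bin was 0.914, against 4.93 in WT mESC and 5.14 to 12.2 in the EB lists. Bin sizes were not equal in all lists. The part of read depth in the count of 0 for KO mESC was not tested, so an absent domain there does not show an absent mark. Neighbouring genes shared domains, so the 29 WT genes rested on 8 domains and the 43 at week 3 on 9. Among coding genes no longer than the longest defensin gene, 35.9% were marked in WT mESC and 9.24% in KO mESC.

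**Figure D2:**
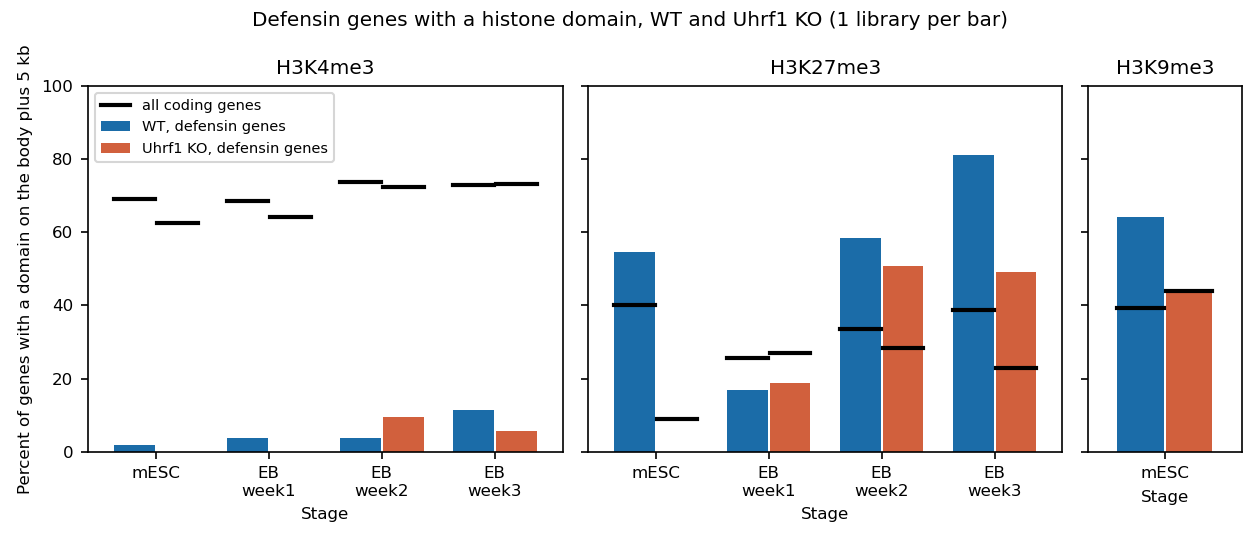
Percent of the 53 defensin genes with a domain on the body plus 5 kb, by mark and stage. Blue bars are WT and orange bars Uhrf1 KO, 1 library per bar, and black lines are the percent of all 22367 coding genes in the same list. H3K27me3 in mESC is 54.7% in WT and 0 in KO, and H3K4me3 bars lie far below the black lines in all 8 lists.

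In the EBs the runs differed in which genotype carried the mark. On chromosome 2, 4 of 11 genes were marked at WT week 1, 1 at week 2 and 11 at week 3, against 6, 11 and 5 in KO. At week 2 the whole run lay in a single KO domain (chr2:152251201-152496000, mean read count 6.74, rank 1476 of 4180), whereas the WT list had a domain of 12.6 kb on Defb29. In the distal run on chromosome 8, 2, 13 and 13 of 21 genes were marked in WT and 0, 4 and 8 in KO. In the proximal run, 3, 14 and 14 of 14 genes were marked in WT and 0, 8 and 13 in KO. On chromosome 14, 0, 1 and 5 of 5 genes were marked in WT and 4, 4 and 0 in KO. The 2 genes on chromosome 1 were marked at WT week 2, inside a domain of 3400 kb, and at no week in KO.

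Genes marked in both genotypes were 4 at week 1, 14 at week 2 and 26 at week 3, beside 18.9, 17.4 and 19.9% of all coding genes, and 0 in mESC, beside 6.46%. Genes marked in WT alone were 5, 17 and 17, beside 6.55, 16.2 and 18.9% of all coding genes, and in KO alone 6, 13 and 0, beside 8.19, 10.8 and 3.0%. Every one of the 26 genes marked in KO at week 3 was also marked in WT. Of the 13 genes marked in KO alone at week 2, 10 lay on chromosome 2 and 3 on chromosome 14.

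Defb14 and Defb4, inducible beta-defensins of the skin and airway, shared 1 proximal domain in each of 3 WT lists. Its mean read count was 5.17 in mESC (272 kb, rank 3554 of 8161), 7.73 at week 2 (383 kb, rank 1074 of 4769) and 9.89 at week 3 (378 kb, rank 2279 of 9488), and it covered both intervals entirely. At week 1 neither gene had a domain in WT or in KO, and in KO mESC neither had one. At KO week 2 a domain of 207 kb with a count of 5.0 ended inside the intervals and covered 53.8% of Defb14 and 11.6% of Defb4, and at week 3 a domain of 349 kb with a count of 4.55 covered both. Defb3, another inducible member, lay outside the WT mESC domain. It was touched by a WT week 1 domain of 7.00 kb over 10.8% of its interval and was covered wholly in WT at weeks 2 and 3 and in KO at week 3.

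Defb1, the constitutive beta-defensin of epithelia, and Defa24 lay together in WT in a distal domain that started at the same base in each list that had it (chr8:22811401). In WT this domain reached 245 kb in mESC (mean read count 5.26), 250 kb at week 2 (8.62) and 293 kb at week 3 (10.9) and covered both genes. In KO the domain with this start had a length of 46.8 kb at week 2 (7.30) and 45.0 kb at week 3 (8.50), which covered Defa24 and left Defb1 unmarked. Defa20 had H3K27me3 at WT weeks 2 and 3 in a domain with identical edges in both lists (chr8:22611601-22672800), ranked 4221 of 4769 and 9435 of 9488, and in no KO list. Defb22, an epididymal sperm-coating glycoprotein, was covered at WT week 3 and at KO week 2.

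H3K9me3 was found on 34 of 53 defensin genes in WT mESC (64.2%, all coding genes 39.4%) and on 23 in KO mESC (43.4%, all coding genes 44.0%). All 23 genes in KO were also marked in WT (29.3% of all coding genes were marked in both), 11 were marked in WT alone (10.1% of all coding genes) and 0 in KO alone (14.7%). With only the domains at or above the median score of their list, 31 genes were marked in WT and 12 in KO. This limit is not alike in the lists. The WT list had 11285 domains over 988 Mb (median length 37.8 kb) and the KO list 3118 over 1090 Mb (140 kb). In KO the score was 21.6 for a domain of 43.2 kb and 561 for one of 1310 kb. The part of domain length in the count of 12 was not tested. The 11 genes marked in WT alone were Defb genes, 7 in the proximal run, 3 on chromosome 2 and 1 on chromosome 14. Of 41 Defb genes, 31 were marked in WT and 20 in KO. The 9 Defb genes of the distal run were marked in both, as were the same 3 Defa genes, among them Defa25 and Defa24. The other 9 Defa genes, 8 of which had under 30% of words found once, were marked in neither. In the proximal run 14 of 14 genes were marked in WT and 7 in KO, and the share of the run covered was 88.6% and 33.2%. In the distal run 12 of 21 genes were marked in both, with 31.4% and 30.8% of the run covered. Of the 4 domains each genotype had in this run and up to 100 kb before it, 3 had the same start and end in WT and KO. Among them, chr8:22228201-22240800 was also an H3K27me3 domain in WT mESC and at WT weeks 2 and 3. Such shared edges were thus not particular to H3K9me3.

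The proximal WT domain (chr8:18745201-19333800, 589 kb, mean read count 18, rank 1966 of 11285) held 12 genes from Defb40 to Defb3. In KO the same stretch held a domain of 137 kb over 4 genes (11.4, rank 1015 of 3118) and a domain of 19.8 kb over Defb14 and Defb4 (14.2, rank 326 of 3118). Defb12, Defb34, Defb6, Defb46, Defb5 and Defb3 had no KO domain. Defb22 was marked in WT (mean read count 13.3, rank 10373 of 11285) and not in KO.

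In WT mESC, 23 defensin genes (43.4%) carried both H3K27me3 and H3K9me3, against 24.5% of all coding genes. Another 6 (11.3%, against 3467 of 22367 coding genes), all in the chromosome 2 run, carried H3K27me3 alone and 11 (20.8%, against 3347 of 22367) carried H3K9me3 alone. The remaining 13 (24.5%, all coding genes 45.1%) had neither and comprised 9 of 12 Defa genes and Defb47, Defb43, Defb30 and Defb42. In KO mESC, 23 carried H3K9me3 alone (43.4%, all coding genes 39.8%) and 30 neither (56.6%, all coding genes 51.3%).

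Uhrf1 windows of 10 kb, called in WT mESC, lay on 11 of 53 defensin genes (20.8%), where 12.3% of all coding genes, and 9.48% of those no longer than the longest defensin gene, had a window. All 11 were on chromosome 8. In the proximal run these were Defb38, Defb39 and Defb12. In the distal run they included Defa23, Defa-rs7, Defa3, Defa26 and Defa17 and, at its far end, Defb15 and Defb35. Windows thus lay on 6 of 12 Defa genes and 5 of 41 Defb genes, and covered 36.9% of the distal and 13.4% of the proximal run. Of the 11 genes, 6 carried H3K9me3 and 6 carried H3K27me3 in WT mESC, against 28 and 23 of the 42 genes without a window. Defa23, Defa-rs7 and Defa3 had a Uhrf1 window and no domain in any histone list. Among the 11 genes, the share of words that occurred once was 7.27 to 93.4%, and among the 24 chromosome 8 members without a window it was 17.1 to 97.4%. The part of repeated sequence in the Uhrf1 calls was not tested.

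The Defa genes, whose words occurred once less often (median 19.1%, Defb 94.8%), were in a median of 1 histone list. The 5 members in no list were Defa23, Defa22, Defa-rs7, Defa3 and Defa5, with shares of 7.27 to 22.8%. All 8 members with under 30% of words found once were Defa genes and were in 0 to 3 lists (median 0). The other 4 Defa genes, among them Defa25, Defa20 and Defa24 (39.1 to 61.9%), were in 2 to 7 lists, and the 41 Defb genes were in 2 to 12 (median 6). Among Defb genes, Defb7 and Defb2, with 66.7% of words found once, and Defb39, with 71.1%, were in 7 lists each. Defb48, with 96.6%, was in 2. The first of these genes lie on chromosome 8 and Defb48 on chromosome 14, so run and words cannot be told apart. A relation over all Defb genes was not tested. Domains were called by the authors with positions masked where a read of 50 bases cannot be placed. The part of this masking in the missing domains was not tested, and an absent domain on these Defa genes does not show an absent mark.

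**Figure D3:**
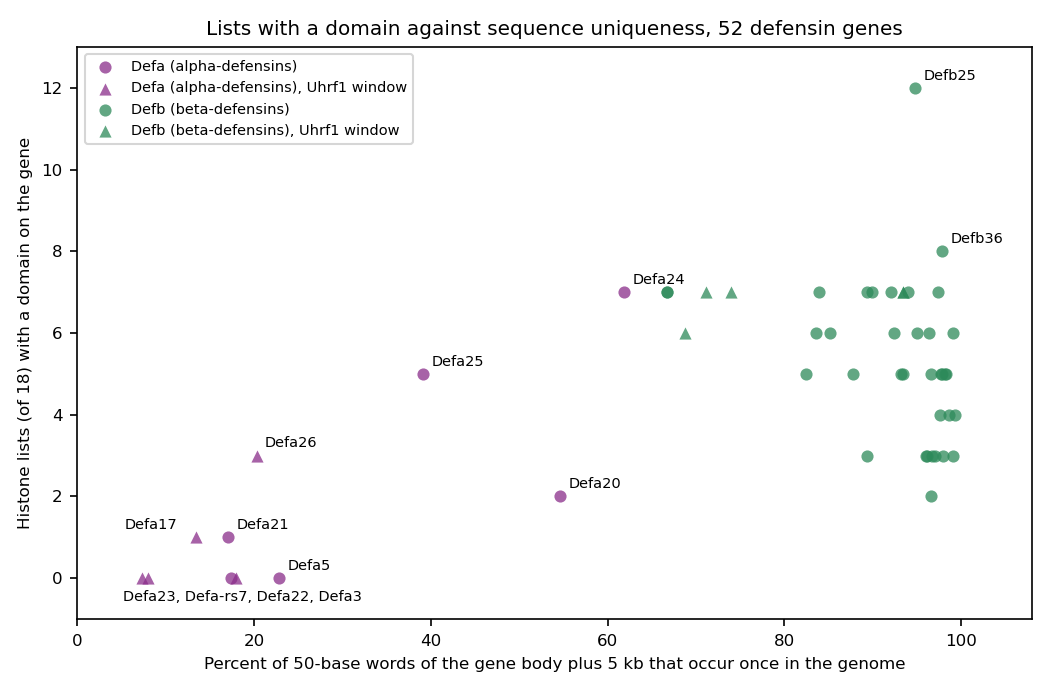
Number of the 18 histone lists with a domain on each defensin gene (vertical axis) against the percent of 50-base words in the gene body plus 5 kb that occur once in the genome (horizontal axis). Each symbol is 1 of 52 genes, purple for Defa and green for Defb, and triangles have a Uhrf1 window. The 5 genes in no list have 7.27 to 22.8% of words found once, and all Defb genes lie at 66.7% or above.

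Summits of the pluripotency factors were rare on the members. In WT mESC, Oct4 had a summit on 1 of 53 genes (18.6% of all coding genes), Sox2 on 0 (12.1%) and Nanog on 0 (4.53%). In KO mESC, Oct4 had a summit on 0 (0.684%), Sox2 on 5 (42.9%) and Nanog on 2 (17.1%). Among coding genes no longer than the longest defensin gene the shares were lower, at 10% for Oct4, 8.23% for Sox2 and 1.79% for Nanog in WT and 0.278, 31.4 and 7.43% in KO. The KO Sox2 summits lay at Defb41, Defb22, Defb1 and, with 1 shared summit, Defb30 and Defb42. The KO Nanog summits lay at Defb41 and Defb46. Their heights were 17 to 22 reads for Sox2, where the median of the list was 18, and 9 and 10 for Nanog, where it was 12.

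Within 100 kb of the chromosome 8 runs the 6 lists had 21 summits, which formed 12 sites when summits up to 100 bp apart were joined. Of these sites, 5 were in more than 1 list, in 5 lists near Defb11, 3 near Defb8 and 2 near Defb1, Defb40 and Defb13. The site in the most lists lay 5.69 kb from Defb11, between genes. It had a height of 68 reads in WT Oct4 (rank 1741 of 12898), 27 in WT Nanog (rank 678 of 2390), 19 in WT Sox2 (rank 3061 of 5190), 23 in KO Nanog (rank 1757 of 10632) and 18 in KO Sox2 (rank 9679 of 20755). KO Oct4 had no summit there, nor anywhere within 100 kb of the runs. The site nearest to a defensin gene lay upstream of Defb1, 0.472 kb from the gene in WT Oct4 (31 reads, rank 8000) and 0.430 kb in KO Sox2 (19 reads, rank 8827), and had no summit in the other 4 lists. Both windows are shown on the plus strand of NCBIM37 because they are the site in the most lists and the site nearest to a defensin gene, with capitals at the summit base of each list.
Site near Defb11 (chr8:23022512-23022631): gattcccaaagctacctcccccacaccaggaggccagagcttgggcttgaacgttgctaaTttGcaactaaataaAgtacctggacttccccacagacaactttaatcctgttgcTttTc
Site upstream of Defb1 (chr8:22886539-22886658): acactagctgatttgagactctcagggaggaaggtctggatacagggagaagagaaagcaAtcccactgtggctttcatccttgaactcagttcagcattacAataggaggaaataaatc
All words of both windows occurred once in the genome. Neither window held the octamer ATGCAAAT, the core of the Oct4 site, or the Sox word CATTGT on either strand, which says only that these letters are not in these 120 bases.

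Beyond Defb7, towards the assembly gap, the summits piled up. The 541 kb from Defb7 to the gap hold 3 coding genes (Gm6483, 4930467E23Rik and Gm15319) and no member. In this stretch lay 108 of 576 KO Oct4 summits (18.8%), 116 of 10632 KO Nanog summits (1.09%), 88 of 2390 WT Nanog summits (3.68%), 20 of 20755 KO Sox2 summits (0.0964%), 10 of 12898 WT Oct4 summits (0.0775%) and 1 of 5190 WT Sox2 summits (0.0193%). Within 100 kb of the runs themselves there were 0 KO Oct4, 5 KO Nanog, 1 WT Nanog, 8 KO Sox2, 6 WT Oct4 and 1 WT Sox2 summits. The pile-up began 266 kb beyond Defb7, and from there to the last summit 19.3% of words occurred once, against 66.9% between Defb7 and the first summit. The share was already low before the first summit. In the bins of 20 kb that start at 180, 200, 220 and 240 kb it was 36.3, 32.7, 10.3 and 33.9%. These bins held no summit in any of the 6 lists. Words around the summits had a median of 2.75 to 3 copies in the 6 lists. The part of repeated sequence in these counts was not tested.

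**Figure D4:**
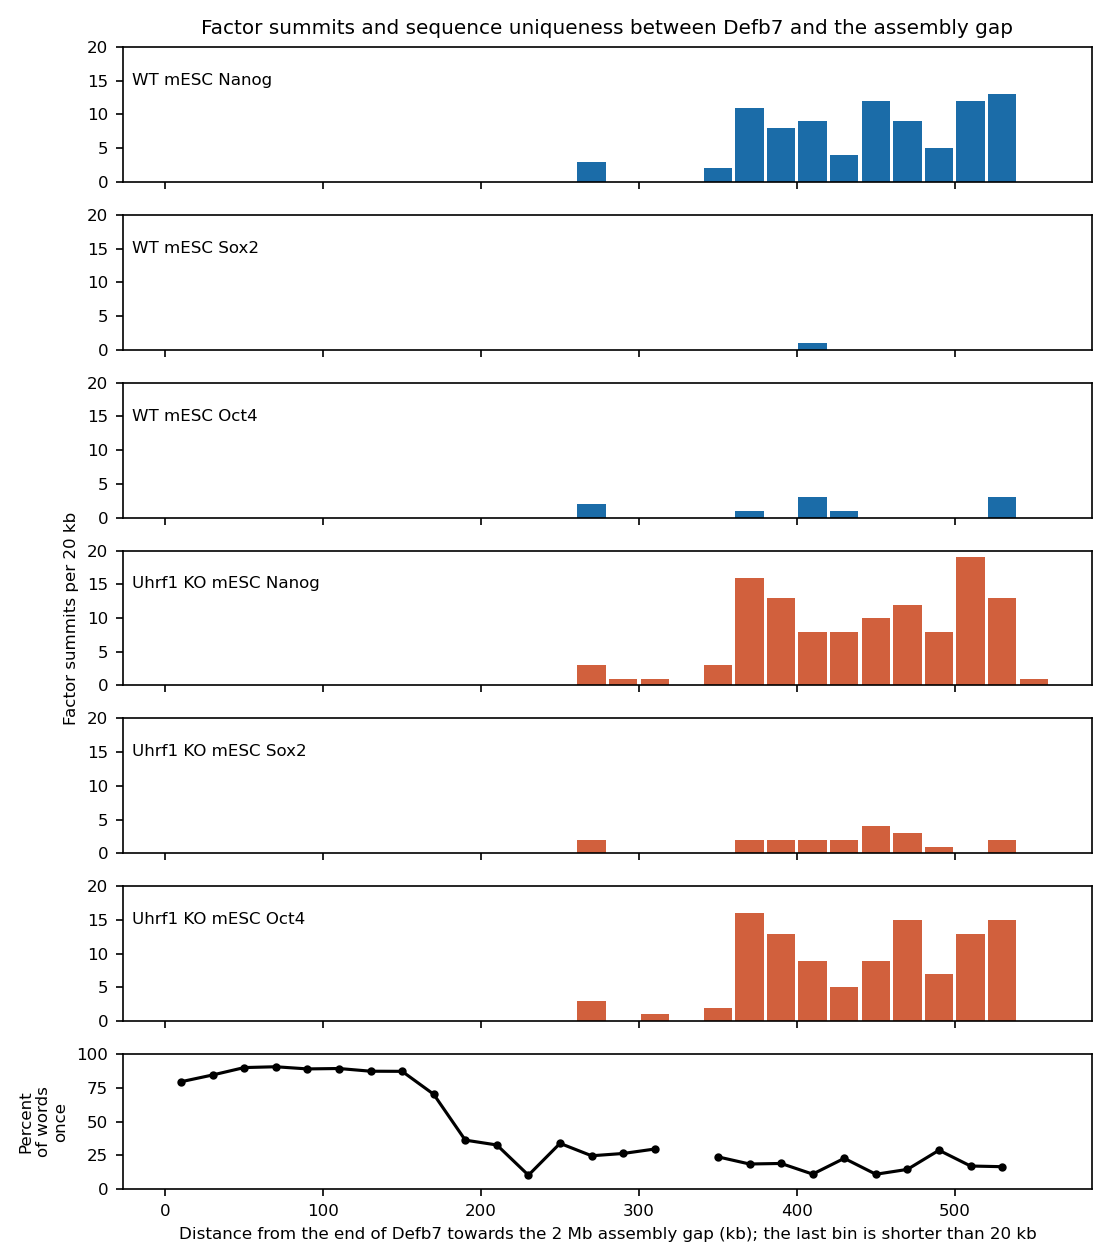
Summits per 20 kb in the 6 factor lists (upper panels, blue for WT and orange for Uhrf1 KO) and percent of 50-base words that occur once (lowest panel), against the distance in kb from the end of Defb7 to the assembly gap. In all 6 lists the summits lie in the last 274 kb, where 11 to 29.7% of words per bin occur once. The bins that start at 180 to 240 kb hold no summit and have 10.3 to 36.3%.

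Of the summits in this stretch, 1 in WT Oct4 and 1 in KO Sox2 were in the top 1% of their list by height, and 0 in the other 4 lists. Their median height was 20 reads in KO Oct4 (22 over the list), 9 in KO Nanog (12), 18 in WT Nanog (21), 22 in KO Sox2 (18) and 38 in WT Oct4 (37), and the WT Sox2 summit had 37 (22). The best ranks were 79 of 576, 342 of 10632, 152 of 2390, 102 of 20755, 28 of 12898 and 971 of 5190 in the same order. Of the 108 KO Oct4 summits, 37 (34.3%) lay within 100 bp of a WT Nanog summit, which is 42.0% of the 88 WT Nanog summits, and 4 (3.70%) lay within 100 bp of a WT Oct4 summit, which is 40.0% of the 10 in WT.

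The 3 tallest KO Oct4 summits there had 46, 41 and 40 reads, the 3 tallest in WT Oct4 144, 116 and 70. In KO Nanog they had 48, 29 and 28, in WT Nanog 47, 37 and 36, and in KO Sox2 132, 96 and 70. The tallest KO Oct4 summit (chr8:19990224) was also a summit at the same base in WT Nanog (36 reads) and KO Sox2 (96), and within 100 bp in KO Nanog (48). Its window is shown because it is the highest Oct4 signal of the pile-up in KO, on the plus strand of NCBIM37 with the octamer in capitals.
Tallest KO Oct4 summit of the pile-up (chr8:19990164-19990283): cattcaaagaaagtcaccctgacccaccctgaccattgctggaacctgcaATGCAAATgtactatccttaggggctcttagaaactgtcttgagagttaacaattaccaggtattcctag
In this window 67.6% of words occurred once. The tallest WT Oct4 summit of the stretch (chr8:20020421, 144 reads, rank 28 of 12898) had a KO Oct4 summit of 41 reads within 100 bp. Its window of 120 bases, not shown, held neither the octamer nor the Sox word CATTGT. The octamer was within 100 bp of 6 of 108 KO Oct4 summits in the pile-up (5.56%) and of 30 of 381 elsewhere on the assembled chromosomes (7.87%). For WT Nanog the shares were 5.68% and 6.37%, and for KO Nanog 5.17% and 7.53%. It was near 2 of 20 KO Sox2 summits in the pile-up (elsewhere 4.81%), 1 of 10 in WT Oct4 (10.2%) and 0 of 1 in WT Sox2 (5.92%). The Sox word CATTGT, also searched on both strands, was near 14 of 108 KO Oct4 summits in the pile-up and 52 of 381 elsewhere, near 12.5% and 21.8% for WT Nanog and near 12.1% and 23.6% for KO Nanog. It was near 4 of 20 KO Sox2 summits in the pile-up (elsewhere 18.5%), 1 of 10 in WT Oct4 (13.4%) and 0 of 1 in WT Sox2 (19.9%). Both words can overlap, since the octamer and the reverse complement of the Sox word share the letters ATG.

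Histone domains of the same stretch were near the top of 17 of the 18 lists, with a best rank of 1 to 50, and of 415 in KO week 1 H3K4me3. The domain chr8:19938601-19940400 ranked 1 of 8161 for H3K27me3 in WT mESC, with a mean read count of 182, which was 36.9 times the median of its list. It ranked 3 of 11285 for H3K9me3 in WT mESC (432 reads, 28.8 times the median), 3 of 4769 and 2 of 9488 for H3K27me3 at WT weeks 2 and 3, and 8 of 6600 and 4 of 4180 at KO weeks 1 and 2. In KO mESC the top H3K27me3 domain of the genome overlapped it (chr8:19939501-19945500, 41.2 reads, 45.1 times the low median of 0.914, rank 1 of 722). For H3K4me3 the tallest domain of the stretch (chr8:19982301-19984900) had 71.7 reads in both WT and KO mESC, rank 7 of 15272 and 5 of 11509. Uhrf1 had 20 windows in the stretch. The KO mESC H3K27me3 list thus held no domain on a defensin gene and had its highest domain in the stretch beyond Defb7. Of the words in the domain chr8:19938601-19940400, 13.8% occurred once.

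Genes near the defensins in function or position gave a mixed picture. Of 17 other antimicrobial and Paneth cell genes, such as Lyz1 (Paneth lysozyme), Camp (cathelicidin) and Lcn2 (a siderophore-binding protein), 4 had H3K4me3 in WT mESC and 2 in KO mESC, and 6 and 7 at week 3. H3K27me3 was on 12 of 17 in WT mESC and 4 in KO mESC, where S100a8, S100a9, Slpi and Mpo stayed marked. H3K9me3 was on 7 in each genotype, but only Lyz2, S100a8 and S100a9 were marked in both. Uhrf1 windows were on 3. Of all coding genes, 69.1% had H3K4me3 in WT mESC and 62.4% in KO mESC, and 72.9 and 73.1% at week 3. H3K27me3 was on 40.0% in WT mESC and 8.91% in KO mESC, H3K9me3 on 39.4 and 44.0%, and Uhrf1 windows on 12.3%. Of 19 coding genes that lie inside the runs and are not members, 7 had H3K27me3 in WT mESC and 0 in KO mESC, 7 and 6 had H3K9me3, and 13 had a Uhrf1 window. By gene ID, 15 of these 19 had a RefSeq symbol in the annotation of GRCm38, and 13 of those symbols now start with Defa or Defb (Gm14851, for example, is Defa38). The member list by name is thus shorter than the family.

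The 25 lists held 576 (KO mESC Oct4) to 39898 (WT week 2 H3K4me3) regions. Of 8 mESC markers, 7 had H3K4me3 within 2 kb of the start in both WT and KO mESC, Esrrb being the exception. Markers of fibroblasts, on which mESC may have been grown, had it at 4 of 6 genes in both, and germ layer markers at 6 of 7 in WT mESC and 4 of 7 in KO mESC. Of all coding genes, 63.2% had it within 2 kb of the start in WT mESC and 57.0% in KO mESC, and 66.2 and 65.8% at week 3. The fibroblast count was near that share and does not show feeder cells. The start of Uhrf1 had H3K4me3 in all 8 lists, which does not check the knockout. Of 6 intestinal and Paneth cell markers, 3 had H3K4me3 in WT mESC and 2 in KO mESC, 3 and 4 at week 3, and the Paneth genes Lyz1 and Mmp7 had it near the start in no list and in KO week 3 alone, respectively.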

How the data were processed

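ChIP-seq libraries of WT and Uhrf1 KO mESC and EBs were used as region lists, 1 library per group. The authors mapped reads to mm9 with Bowtie2 2.1.0, keeping 1 alignment per read, and called histone domains against input with RSEG, masking unmappable positions. The deposited domain lists hold in column 5 a signal (reads per bin, averaged over the domain) and a domain score. Whether column 5 was scaled for depth is not stated. The deposited summit lists from MACS give the signal at the summit, in reads. For Uhrf1 the authors deposited windows of 10 kb with enrichment over input and no value. Neither the 8 input samples nor read totals were used here, so the depth behind each list is unknown and no interval is given.

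Genes were taken from the mm9 GENCODE annotation. A gene was marked when a region overlapped its body plus 5 kb by at least 1 bp, and all 22367 coding genes were counted the same way. Members less than 2 Mb apart formed a run. Ranks are by column 5 within a list. Words of 50 bases were counted in the NCBIM37 assembly. Scripts (Python 3.11, numpy 2.4.6, matplotlib 3.10.9) were tested on simulated data. Named with values were members with H3K4me3 in mESC or a Uhrf1 window, those in the most and the fewest lists, 7 members whatever their values (Defb1, Defb3, Defb4, Defb14, Defb22, Defa20 and Defa24) and the 3 tallest summits per list, and other names were chosen after their values were seen. Members and lists were chosen with earlier results of these data known. 1 member is counted in all totals and is not reported here by name. Other intervals, overlaps, score limits and distances were tried as alternatives.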

Additional observations from a re-analysis of the deposited data

Results flagged for a closer look

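At a single stage of each mark the difference between WT and KO ran opposite to the other stages. H3K27me3 was on 10 defensin genes in KO and 9 in WT at week 1, whereas KO was below WT in mESC and at weeks 2 and 3. All coding genes had the same pattern, with 27.1% marked in KO and 25.5% in WT at week 1, against 8.91 and 40.0% in mESC, 28.3 and 33.6% at week 2 and 22.9 and 38.8% at week 3. H3K4me3 was on 5 defensin genes in KO and 2 in WT at week 2, whereas KO was below WT in mESC and at weeks 1 and 3. All coding genes did not have this pattern, with 72.4% in KO and 73.7% in WT at week 2, 62.4 and 69.1% in mESC, 64.3 and 68.5% at week 1 and 73.1 and 72.9% at week 3. With only the domains at or above the median score the H3K4me3 counts turned to 1 in WT and 0 in KO at week 2 and 0 in WT and 1 in KO at week 3, and no other rule gave a difference at week 1. Neither difference between stages was tested, as each count came from 1 library.

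Summits also lay on chromosome 8 sequence that is not placed on the assembled chromosome, which the comparisons did not use. In WT mESC there were 67 Nanog summits (2.80% of the list), 10 Sox2 summits (0.193%) and 19 Oct4 summits (0.147%). In KO mESC there were 57 Nanog summits (0.536%), 38 Sox2 summits (0.183%) and 82 Oct4 summits (14.2%). These sequences were not analysed further, and the difference between genotypes was not tested.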

How the results depend on the processing

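With 25 counts and 96 alternatives, 48 values stayed within 1.5 times the reported count and 48 did not. Of 35 recomputed directions between WT and KO, 24 kept their sign, 9 became no difference and 2 turned, both for H3K4me3 with domains at or above the median score (1 gene in WT and 0 in KO at week 2, 0 and 1 at week 3). H3K4me3 genes on the gene body alone numbered 0, 0, 1 and 1 in WT from mESC to week 3, and 3 and 1 in KO at weeks 2 and 3. With 50% of the interval covered they numbered 0 in all 4 WT lists and 1 and 0 in KO at weeks 2 and 3. With domains at or above the median score they numbered 0, 0, 1 and 0 in WT and 0 and 1 in KO at weeks 2 and 3. Within 2 kb of the start they numbered 0 at WT week 1, 2 at WT week 3, and 3 and 1 in KO at weeks 2 and 3. At week 1, H3K27me3 on the body alone or over 50% of the interval was on 3 genes in WT and 6 in KO. KO H3K9me3 with domains at or above the median score was on 12 genes, and the part of the longer KO domains in this count was not tested. Nanog, Sox2 and Oct4 summits within 1 Mb of the runs numbered 91, 10 and 28 in WT and 128, 46 and 108 in KO. Inside the body plus 5 kb of the chromosome 8 genes they numbered 0, 0 and 1 in WT, and 1 for Nanog and 1 for Sox2 in KO. At or above the median height there were 0 Sox2 and 1 Oct4 summits in WT and 2 Nanog and 4 Sox2 summits in KO. With the sequence between the runs included, an alternative chosen after seeing the data, they numbered 89, 2 and 16 in WT and 121, 28 and 108 in KO. The cause of these changes was not tested. Leaving out a replicate could not be done with 1 library per group. No paired analysis was possible because each group had 1 library and the labels carry no replicate numbers. Repeated sequence limits what can be said of the Defa genes with few words found once.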
